A study of Mus musculus with 8 samples.

Results

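Regulators of G protein signalling (RGS proteins) were followed through 7 genes: Rgs1, Rgs2, Rgs3, Rgs10, Rgs14, Rgs16 and Rgs19. They were chosen by name, with earlier results of these data known, among the 39179 genes listed for each library. All 7 held enough counts to be tested. The RNA came from mouse CD4 T cells with the Smarta receptor, a transgenic T cell receptor for the peptide GP61-80, from mice crossed to a CreERT2 line whose Cre recombinase is switched on by tamoxifen. The cells were transduced with a retrovirus and transferred to C57BL/6 hosts, which were immunized under the skin with this peptide and nitrophenol on a serum albumin carrier. Tamoxifen was given on day 5, and 18 hours later cells were sorted from inguinal nodes that had been pooled. The sorted cells were Thy-1.1+ and CD44hi, and were either CXCR5+ PD-1+ follicular helper (Tfh) cells or CXCR5- PD-1- (non-Tfh) cells. Each cell type carried either an inducible Bach2 vector or an empty control vector, which gave 4 groups of 2 libraries. All 4 groups share the receptor, the Cre line, the transduction, the transfer and the immunization. The labels do not say separately whether hosts of empty vector cells also received tamoxifen. Bach2 encodes a transcriptional repressor that restrains effector differentiation, and the Bach2 groups are overexpression models that also hold the endogenous gene.

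RGS proteins bind the activated alpha subunits of heterotrimeric G proteins and speed the hydrolysis of GTP, which ends the signal of a G protein-coupled receptor. In lymphocytes these receptors include those for chemokines and sphingosine phosphate, so RGS levels set how long a cell responds to cues for positioning in the lymph node. The family is split into classes by sequence. Rgs1, Rgs2, Rgs3 and Rgs16 belong to the R4 class, Rgs10 and Rgs14 to the R12 class and Rgs19 to the RZ class. Most R4 and R12 proteins act on Gi alpha subunits, while Rgs2 prefers those of the Gq class.

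Tfh cells held more Rgs10 and Rgs16 and less Rgs1 than non-Tfh cells. With empty vector, Rgs10 was 3.42-fold and Rgs16 2.88-fold higher in Tfh than in non-Tfh cells, and Rgs1 was 1.57-fold lower, all past the threshold of an adjusted p below 0.05. Rgs3 and Rgs14 differed little between any of the groups. The Bach2 vector moved 1 of the 7 genes when its effects in the 2 cell types were averaged: Rgs16 fell, where 5.27% of all tested genes passed (2.9% lower), and the call was lost without either of 2 libraries. In neither cell type alone did a member pass the threshold for the vector.

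Library totals ran from 7862879 to 9889859 counts. Values are given as CPM, counts scaled to the library total, after adjustment of the library sizes by trimmed mean of M-values (TMM). A count of 0 allows up to 3 counts, or 0.303 to 0.382 CPM, and this limit covers counting error only. Bach2 itself stood at 11.2 to 28.9 CPM in the 4 empty vector libraries and at 120.9 to 157.5 CPM in the 4 Bach2 vector libraries. With empty vector its mean was 12.6 CPM in Tfh and 26.9 CPM in non-Tfh cells. The rise with the Bach2 vector was therefore unequal, 3.35 in Tfh and 2.42 in non-Tfh cells on the log2 scale. The part of this inequality in the averaged and contrasted vector effects was not tested. The 8 T cell markers were all present. Of the 8 Tfh markers, which include the sort markers Cxcr5 and Pdcd1, 7 were higher in Tfh cells with empty vector and 1 was lower. All 8 non-Tfh effector markers were lower in Tfh cells with empty vector. Among lists of other cells, 8 B cell markers summed to between 2.42 and 13.7 CPM per library. The 8 myeloid and dendritic cell markers summed to between 76.0 and 96.3 CPM, of which Cst3 alone held 65.5 to 85.3 CPM. Of the 6 tested, 1 was higher and 2 were lower in Tfh cells with empty vector. Cd68 was higher (means of 7.79 against 1.55 CPM), while Itgam (0.97 against 4.92 CPM) and Itgax (0.050 against 1.65 CPM) were lower. Of 2 CD8 T cell markers, Cd8b1 stood at 13.1 to 20.2 CPM and Cd8a at 0.764 CPM or below. Of 7 stroma and platelet markers only Pecam1 was tested, at 175.7 to 280.2 CPM. It was higher in Tfh cells with empty vector and with Bach2 (0.35 and 0.48 on the log2 scale). The sum of 4 NK cell markers, mostly Klrb1c, moved with cell type, from 61.8 to 100.4 CPM in Tfh and from 11.7 to 24.3 CPM in non-Tfh libraries, with 2 of the 4 (Ncr1 and Klra8) at 0 in all libraries. Of 4 regulatory T cell markers, the defining Foxp3 was at 3.39 CPM or below in every library. The others went opposite ways with empty vector: Ikzf2 had a mean of 86.1 CPM in Tfh and 11.5 CPM in non-Tfh cells, while Il2ra (8.06 and 126.7 CPM), also on the non-Tfh effector list, and Ctla4 (40.6 and 70.9 CPM) were lower in Tfh cells. The sum of the 4 ran from 125.0 to 143.7 CPM in Tfh and from 193.7 to 218.9 CPM in non-Tfh libraries. Their part in the results was not tested. In bulk RNA, fewer cells that express a gene and less RNA per cell cannot be told apart. The labels do not say whether the 2 libraries of a group came from separate animals, so the tests measure the spread between these libraries.

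**Figure D1:**
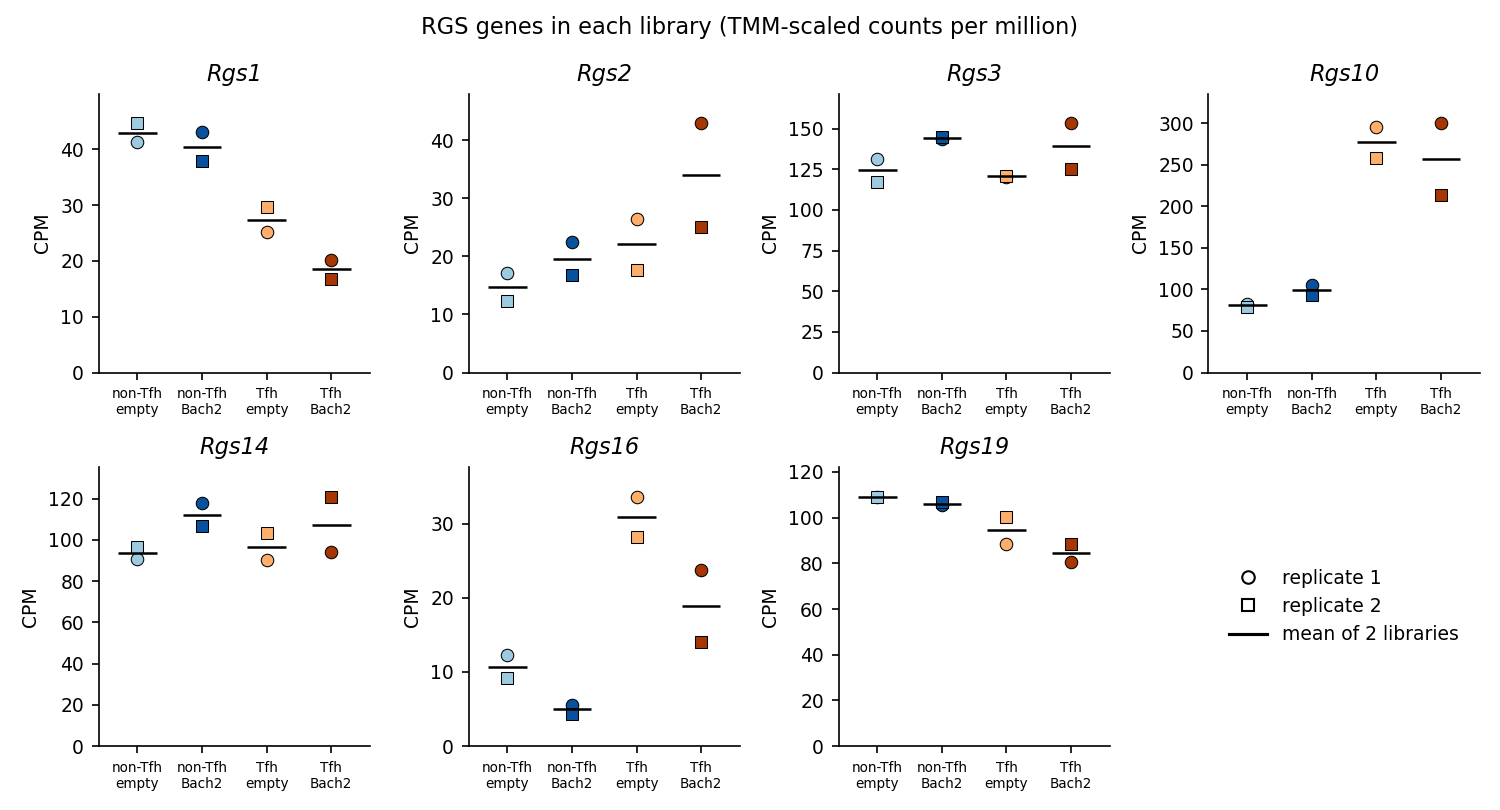
Levels of the 7 RGS genes in each library, in TMM-scaled CPM on axes that start at 0, for non-Tfh (blue) and Tfh (orange and brown) cells with empty or Bach2 vector; circles and squares are replicates 1 and 2 and bars are means of 2 libraries. Rgs10 and Rgs16 lie higher in all Tfh libraries than in any non-Tfh library, and Rgs1 lies lower.

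Among the R4 genes, Rgs16 had the widest range. Its product shortens Gi and Gq signals and is known to limit chemokine-driven migration of T cells. The gene lies on chromosome 1 (GRCm38, 153740349 to 153745468, plus strand). It stood at 33.6 and 28.2 CPM in Tfh cells with empty vector, and at 23.8 and 14.01 CPM in Tfh cells with Bach2. In non-Tfh cells it stood at 12.3 and 9.13 CPM with empty vector and at 5.57 and 4.32 CPM with Bach2. The 4 groups did not overlap, and followed the order Tfh empty, Tfh Bach2, non-Tfh empty, non-Tfh Bach2. The highest and lowest group means, 30.9 ± 3.81 and 4.94 ± 0.884 CPM (SD, n = 2), were 6.26-fold apart. The log2 fold change of Tfh against non-Tfh cells was 1.53 (SE 0.246) with empty vector and 1.94 (SE 0.277) with Bach2. By edgeR's quasi-likelihood test the adjusted p was 0.000557 and 0.000197.

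With the Bach2 vector, Rgs16 was lower in each cell type. Its log2 fold change was -0.71 (SE 0.234) in Tfh and -1.12 (SE 0.289) in non-Tfh cells. Neither passed the threshold alone (edgeR adjusted p = 0.152 and 0.121). Both passed without a filter on low counts (edgeR adjusted p = 0.00869 and 0.000307), and the second by DESeq2 (adjusted p = 0.0307). Averaged over the 2 cell types the change was -0.91 (SE 0.186), and it passed (edgeR adjusted p = 0.0147). All 4 Bach2 libraries lay below both empty vector libraries of their own cell type. The interaction, which is the Bach2 effect in the Tfh minus that in the non-Tfh groups, was 0.41 with a 95% interval of -0.39 to 1.22. The averaged change lost its call without replicate 1 of the non-Tfh cells with empty vector (edgeR adjusted p = 0.0743) and without replicate 2 of the non-Tfh cells with Bach2 (edgeR adjusted p = 0.0717). In Tfh cells alone it was -1.14 without replicate 1 of the Bach2 Tfh cells (edgeR adjusted p = 0.0367) and -0.38 without replicate 2. Some markers of both cell types also fell. For the averaged Bach2 effect 3 of the 8 Tfh markers passed as lower (Bcl6, Il21 and Icos). So did 3 of the 8 non-Tfh effector markers (Ifng, Gzmb and Il2ra), where 2.9% of all tested genes passed as lower. The other markers did not pass, and 2 effector markers, Id2 (0.017) and Selplg (0.15), did not fall. The summed level of the 8 Tfh markers ran from 2979 to 3400 CPM (Tfh, empty vector), 2401 to 2829 CPM (Tfh, Bach2), 1322 to 1414 CPM (non-Tfh, empty vector) and 906.3 to 1024 CPM (non-Tfh, Bach2). Much of the sum in non-Tfh cells was Icos, which was higher there than in Tfh cells (means of 926.7 and 666.1 CPM with empty vector). Without Icos the sum ran from 2232 to 2814, 1814 to 2286, 406.5 to 476.5 and 265.1 to 330.7 CPM in the same order, so that the 2 Tfh groups overlapped. The summed level of the effector markers ran from 582.4 to 747.6, 706.6 to 845.0, 2551 to 2756 and 2219 to 2525 CPM. The part of these markers in the result was not tested. A gene on the other strand, Gm28513, shares 236 exon bases with Rgs16 and was not among the counted genes, and the library kit does not mark strand.

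The sequence just before the start of Rgs16 is shown because this gene alone passed for the averaged Bach2 effect, and that of Rgs10 because it had the largest difference between cell types with empty vector. Both come from RefSeq promoter windows of 250 bases before to 50 bases after the start (GRCm38.p6), ending before the first annotated exon of the window, at chr1:153740103-153740348 (plus strand) and chr7:128418174-128418422 (minus strand). The Rgs16 stretch lies outside the gene, and the Rgs10 stretch lies in an intron of a longer Rgs10 transcript in GENCODE. Capitals mark CG dinucleotides.
Rgs16: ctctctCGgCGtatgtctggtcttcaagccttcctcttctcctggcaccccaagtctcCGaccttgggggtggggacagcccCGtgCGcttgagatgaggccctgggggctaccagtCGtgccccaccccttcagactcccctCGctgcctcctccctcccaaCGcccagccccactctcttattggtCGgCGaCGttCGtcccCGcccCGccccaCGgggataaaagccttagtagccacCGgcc
Rgs10: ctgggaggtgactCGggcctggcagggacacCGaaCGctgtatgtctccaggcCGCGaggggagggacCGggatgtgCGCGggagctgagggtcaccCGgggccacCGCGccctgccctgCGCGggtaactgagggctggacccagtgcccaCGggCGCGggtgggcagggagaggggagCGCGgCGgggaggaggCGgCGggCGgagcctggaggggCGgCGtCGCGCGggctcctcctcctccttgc

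RefSeq windows were found for 5 of the 7 members, 8 windows in all, and not for Rgs1 and Rgs14. The motif TGANTCA, the core bound by AP-1 and by pairs of Bach and small Maf proteins, was searched on both strands of the full 300 bases. It was in 0 of the 8 windows, against 7.81% of all 32851 windows of that length. The same core preceded by TGC was in 0.423% of all windows and in none of these 8. No match says only that these letters are not in these windows. The whole windows of Rgs10 and Rgs16 held 34 and 22 CG dinucleotides, against a median of 7 over all windows. Fewer were held by 92.3% and 76.9% of all windows. The window of Rgs2 held 33, those of Rgs19 held 27, 37 and 4, and those of Rgs3 held 4 and 9.

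Rgs1 moved opposite to Rgs16 between the cell types. Its product, abundant in activated B and T cells, dampens chemokine responses through Gi. Its locus is on chromosome 1 (GRCm38, 144242296 to 144249242, minus strand). It stood at 25.2 and 29.6 CPM in Tfh cells with empty vector, and at 20.2 and 16.8 CPM in Tfh cells with Bach2. The non-Tfh libraries held 41.2 and 44.6 CPM with empty vector and at 43.1 and 37.8 CPM with Bach2. All 4 Tfh libraries lay below all 4 non-Tfh libraries, and the 2 non-Tfh groups overlapped. The log2 fold change of Tfh against non-Tfh cells was -0.65 (SE 0.147) with empty vector and -1.13 (SE 0.152) with Bach2. By edgeR's quasi-likelihood test the adjusted p was 0.00555 and 9.90e-05. The call with empty vector was lost without replicate 1 of the empty vector Tfh cells (edgeR adjusted p = 0.0804) or without replicate 2 of the empty vector non-Tfh cells (edgeR adjusted p = 0.0624).

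The 2 Bach2 Tfh libraries held less Rgs1 than the 2 empty vector Tfh libraries, with means of 18.5 ± 2.40 and 27.4 ± 3.13 CPM (SD, n = 2). That change of -0.56 (SE 0.156) did not pass (edgeR adjusted p = 0.0887), except without the filter on low counts (edgeR adjusted p = 0.0233). In non-Tfh cells the change was -0.09, with a 95% interval of -0.39 to 0.22. The interaction was -0.48 (SE 0.211). Its unadjusted p was 0.0413 in edgeR's fit and its adjusted p was 0.998, so a difference between the vector effects in the 2 cell types was not established.

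Rgs2, which prefers Gq alpha subunits and also curbs cyclic AMP production, differed between the 2 replicates of every group. The gene lies on chromosome 1 (GRCm38, 143999338 to 144004161, minus strand). It stood at 26.4 and 17.7 CPM in Tfh cells with empty vector and at 42.9 and 25.1 CPM with Bach2. In non-Tfh cells it stood at 17.1 and 12.4 CPM with empty vector and at 22.5 and 16.8 CPM with Bach2. Replicate 1 was 1.34-fold to 1.71-fold above replicate 2 in each of the 4 groups. Within each vector the Tfh and non-Tfh libraries did not overlap, while the empty vector and Bach2 libraries of a cell type did.

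The log2 fold change of Rgs2 in Tfh against non-Tfh cells was 0.59 (SE 0.308) with empty vector and 0.80 (SE 0.293) with Bach2, neither past the threshold (edgeR adjusted p = 0.219 and 0.0806). With Bach2 it did pass by DESeq2 (adjusted p = 0.0245), without a filter on low counts (edgeR adjusted p = 7.32e-05) and without replicate 2 of the Bach2 Tfh cells (1.13, edgeR adjusted p = 0.00874), and it was 0.36 without replicate 1. With empty vector it passed without the filter (edgeR adjusted p = 0.0117). The averaged Bach2 effect was 0.51, with a 95% interval of 0.034 to 0.99, and did not pass (edgeR adjusted p = 0.216). Without the filter it passed (edgeR adjusted p = 0.00191), as did the Bach2 effect in Tfh cells alone, 0.62 (edgeR adjusted p = 0.0144, against 0.344 with the filter). The change in Tfh cells was the same in both fits, while its SE went from 0.291 to 0.173 without the filter. Rgs10 and Rgs16 were also higher in replicate 1 than in replicate 2 in each group. Such a shared direction was found for 9.28% of the 11475 tested genes.

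Rgs3, an R4 gene with short and long protein forms, was nearly level across the groups. Its locus is on chromosome 4 (GRCm38, 62559847 to 62704001, plus strand). It stood at 120.2 and 121.1 CPM in Tfh cells with empty vector and at 153.2 and 125.3 CPM with Bach2. The non-Tfh libraries held 131.5 and 117.2 CPM with empty vector and at 143.7 and 145.1 CPM with Bach2. The Bach2 libraries lay above the empty vector libraries of the same cell type in both cases, by 0.21 (SE 0.103) in Tfh and 0.22 (SE 0.102) in non-Tfh cells on the log2 scale. The average of these, 0.21 with a 95% interval of 0.056 to 0.37, did not pass (edgeR adjusted p = 0.109), except without the filter (edgeR adjusted p = 0.0421) or when Bach2 Tfh replicate 2 was left out (edgeR adjusted p = 0.0465). Between the cell types the change was -0.04 with empty vector (95% interval -0.27 to 0.18) and -0.05 with Bach2 (95% interval -0.27 to 0.17). The counts sum all transcripts, so a switch between its 8 annotated coding transcripts would not be seen.

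**Figure D2:**
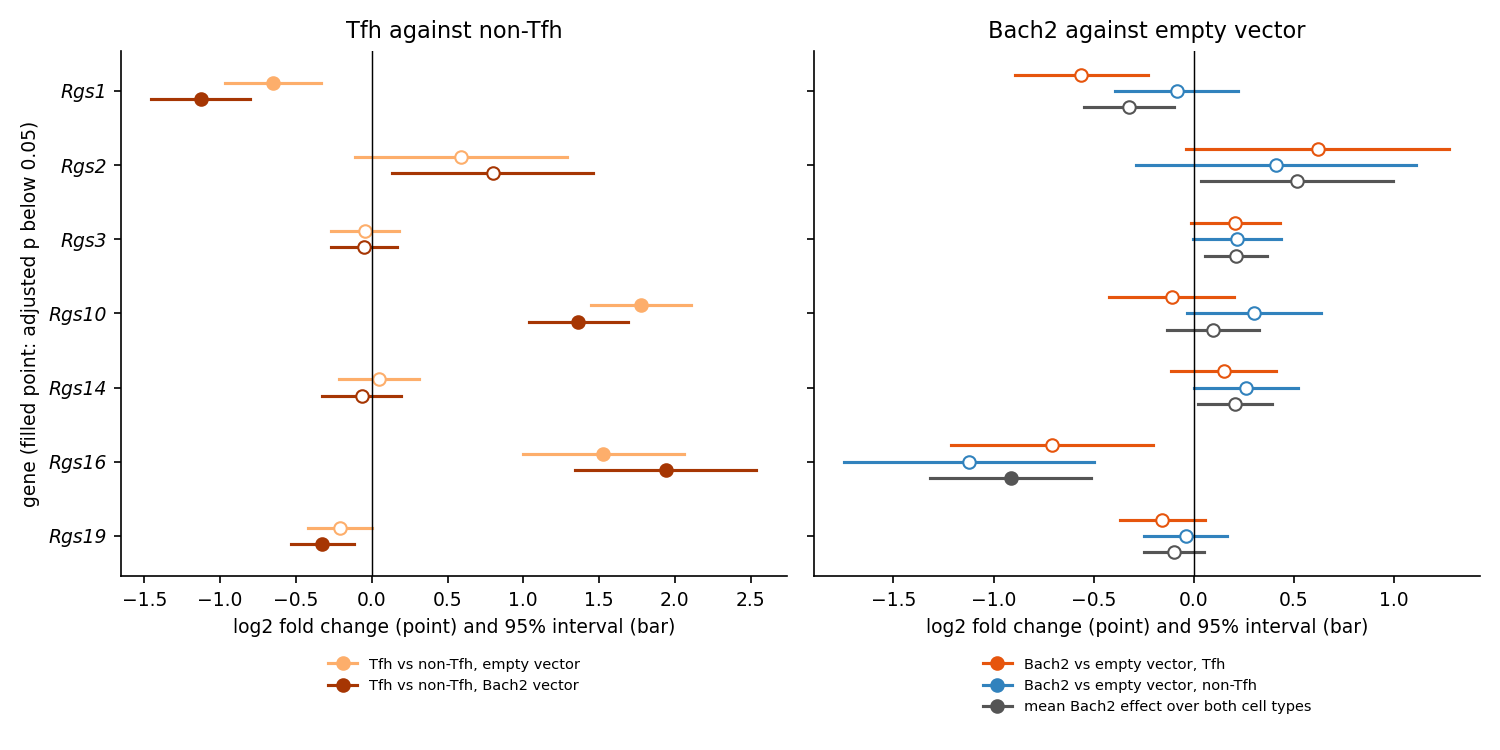
Log2 fold changes (x axis, points) with 95% intervals (bars) from edgeR's fit for the 7 RGS genes (y axis), for Tfh against non-Tfh cells (left) and Bach2 against empty vector (right); filled points have an adjusted p below 0.05. Rgs10 and Rgs16 lie right of 0 and Rgs1 left of 0 in both cell type comparisons, and the averaged Bach2 effect on Rgs16 is the filled point on the right.

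In the R12 class, Rgs10 was the most abundant member and the most different with empty vector. Rgs10 is a small protein that consists of little more than the RGS domain and acts on Gi alpha subunits. The gene lies on chromosome 7 (GRCm38, 128373621 to 128418758, minus strand). It stood at 295.5 and 258.3 CPM in Tfh cells with empty vector and at 299.7 and 213.2 CPM with Bach2. In non-Tfh cells it stood at 83.0 and 78.8 CPM with empty vector and at 105.6 and 93.8 CPM with Bach2. Every Tfh library was at more than double the highest non-Tfh library. The log2 fold change of Tfh against non-Tfh cells was 1.78 (SE 0.149) with empty vector and 1.36 (SE 0.147) with Bach2. By edgeR's quasi-likelihood test the adjusted p was 1.39e-05 and 7.66e-05.

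The Bach2 vector left the 2 Tfh groups of Rgs10 overlapping, with a change of -0.11 (SE 0.141, edgeR adjusted p = 0.774). In non-Tfh cells the Bach2 libraries lay above the empty vector libraries, by 0.30 (SE 0.150), which did not pass (edgeR adjusted p = 0.543). The interaction was -0.41 with a 95% interval of -0.87 to 0.045 (edgeR adjusted p = 0.998).

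Rgs14, which joins an RGS domain to domains that bind Rap and Gi alpha, was level across the cell types. Its locus is on chromosome 13 (GRCm38, 55369732 to 55384687, plus strand). It stood at 90.2 and 103.3 CPM in Tfh cells with empty vector and at 93.9 and 120.8 CPM with Bach2. The non-Tfh libraries held 90.6 and 96.5 CPM with empty vector and at 117.8 and 106.6 CPM with Bach2. The 2 Tfh groups overlapped, and the 2 non-Tfh groups did not. Tfh against non-Tfh cells gave 0.05 with empty vector (95% interval -0.22 to 0.31) and -0.06 with Bach2 (95% interval -0.32 to 0.20). The averaged Bach2 effect was 0.21 (SE 0.0860) and did not pass (edgeR adjusted p = 0.192), except without replicate 1 of the Bach2 Tfh cells (edgeR adjusted p = 0.0438).

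Rgs19, the RZ member and also known as GAIP, acts on Gi alpha subunits at membranes. The gene lies on chromosome 2 (GRCm38, 181688419 to 181693977, minus strand). It stood at 88.5 and 100.3 CPM in Tfh cells with empty vector and at 80.6 and 88.7 CPM with Bach2. In non-Tfh cells it stood at 109.1 and 108.8 CPM with empty vector and at 105.3 and 106.7 CPM with Bach2. All 4 Tfh libraries lay below all 4 non-Tfh libraries. The difference was small: -0.21 (SE 0.0975) on the log2 scale with empty vector, which did not pass (edgeR adjusted p = 0.151), and -0.33 (SE 0.0980) with Bach2, which did (edgeR adjusted p = 0.0259). The call with Bach2 was lost when replicate 1 of the Bach2 Tfh cells or either replicate of the Bach2 non-Tfh cells was left out (edgeR adjusted p = 0.163, 0.0798 and 0.0956). The vector changed it by -0.16 (95% interval -0.37 to 0.055) in Tfh cells and by -0.04 (95% interval -0.25 to 0.17) in non-Tfh cells.

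Read together, 3 of the 7 members passed between the cell types with empty vector (2 higher and 1 lower in Tfh cells), where 21.9% of all 11475 tested genes passed, 10.6% higher and 11.3% lower. With Bach2, 4 of 7 passed (2 higher, 2 lower), where 24.4% of all tested genes did, 11.6% higher and 12.7% lower. The median log2 fold change over the 7 members was 0.046 with empty vector and -0.052 with Bach2, against 0.0055 and 0.00067 over all tested genes. The libraries of the 2 cell types did not overlap for 5 of the 7 members with either vector, against 62.2% of tested genes with empty vector and 59.8% with Bach2. The 2 cell type comparisons use different libraries. The members were chosen with earlier results of these data known, and Rgs12, the only other tested RGS gene, passed in neither comparison.

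For Bach2 against empty vector, 0 of 7 members passed in Tfh cells, where edgeR called 1.71% of tested genes (0.549% higher, 1.16% lower), and 0 of 7 in non-Tfh cells, where it called 0.871% (0.253% higher, 0.619% lower). At an unadjusted p under 0.05 in edgeR's fit, 2 of the 7 passed in each (Rgs1 and Rgs16 in Tfh, Rgs14 and Rgs16 in non-Tfh cells). Of all 11475 tested genes, 1823 in Tfh and 1188 in non-Tfh cells were under that limit. DESeq2 called 0 members in Tfh and 1, Rgs16, in non-Tfh cells, where it called 326 and 161 genes in all. The groups did not overlap for 3 and 5 of the 7 members, against 44.6% and 42.2% of tested genes. Averaged over the cell types, 1 of 7 passed, where 5.27% of tested genes did (2.37% higher, 2.9% lower). For the interaction edgeR called 0 genes in all (0%), with 539 of the 11475 at an unadjusted p under 0.05, and DESeq2 called 4. Of the members, 1 had an unadjusted p under 0.05 there (Rgs1), and DESeq2 called 0.

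Levels of different genes were compared as CPM per kilobase of exons of coding transcripts. On that scale Rgs10 led the 7 members in each group, with 210.1 in Tfh and 61.4 in non-Tfh cells with empty vector, and 194.6 and 75.7 with Bach2. Rgs19 and Rgs14 came next in every group, at 44.1 and 41.1 in Tfh and 50.9 and 39.7 in non-Tfh cells with empty vector. The other 4 members were at 15.8 CPM per kilobase or below. Rgs10 made up 62.6% of the summed value of the 7 genes in the Tfh and 33.0% in the non-Tfh group with empty vector, and 61.1% and 36.5% with Bach2. Scaled by the longest coding transcript of each gene instead, the Rgs10 share was 66.7%, 36.6%, 65.2% and 40.3% in the same order. Rgs16 was the lowest in non-Tfh cells with Bach2, at 2.11. The order of the other low members changed with the length used.

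**Figure D3:**
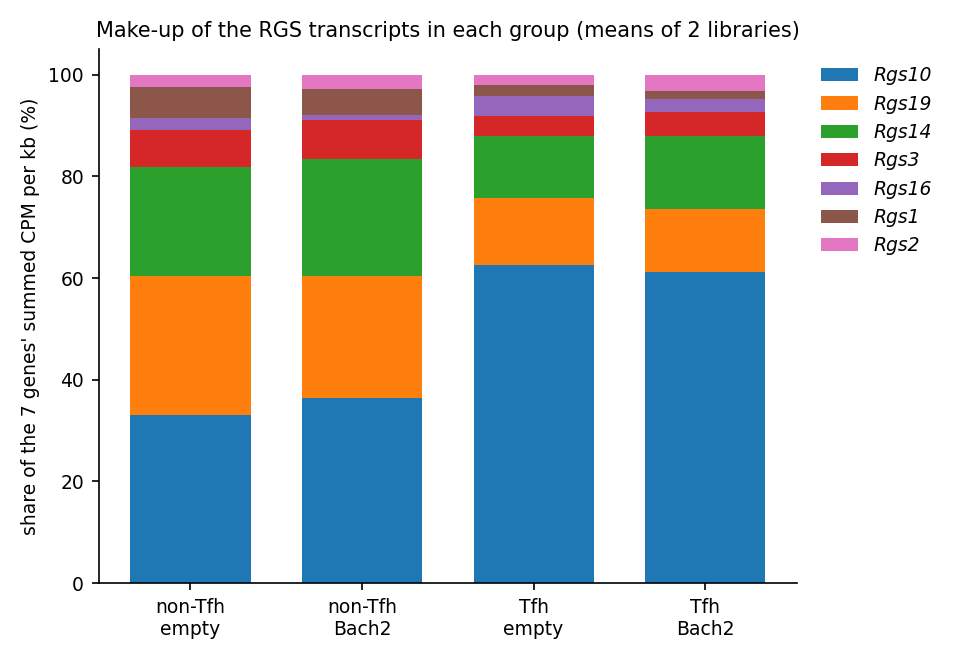
Share of each RGS gene in the summed CPM per kilobase of the 7 genes (y axis, percent), from the mean of 2 libraries in each of the 4 groups (x axis). Rgs10 makes up 62.6% and 61.1% in the Tfh groups and 33.0% and 36.5% in the non-Tfh groups.

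The files hold 21 RGS genes, of which 8 were tested: the 7 members and Rgs12, an R12 gene. Rgs12 stood between 5.31 and 7.70 CPM in the 8 libraries and passed in none of the comparisons. Of the other 13, 7 had 0 counts in every library, among them Rgs13, known from germinal centre B cells. Rgs18, known from platelets and myeloid cells, had 9 counts over the 8 libraries, and Rgs5, a pericyte gene, had 5. On chromosome 1, Rgs2 and Rgs1 flank Rgs13 with no other coding gene between them, and Rgs21 and Rgs18 follow. In this run of 5 genes on the minus strand, Rgs2 and Rgs1 held 1643 and 2352 counts over the 8 libraries, Rgs13 and Rgs21 held 0 and Rgs18 held 9.

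Rgs8 is the nearest coding gene before Rgs16, 40.0 kb away and on the same strand. Chosen here after its values were seen and too low to be tested, it had 15 and 7 counts in Tfh cells with empty vector and 9 and 3 with Bach2. It had 3 and 0 counts in non-Tfh cells with empty vector and 0 and 0 with Bach2. That is 34 counts in the 4 Tfh and 3 in the 4 non-Tfh libraries.

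Genes whose pattern over the 8 libraries was nearest to a member were found by the root mean square difference of centred log2 CPM. For Rgs10 these were Ext1 (0.13), a heparan sulfate enzyme gene, Tox (0.16), a factor of Tfh and chronically stimulated T cells, and 2310001H17Rik (0.16), where Rgs10 itself varied with a root mean square of 0.80 about its mean. For Rgs16 they were Pdcd1 (0.27), which encodes the sort marker PD-1, the channel gene Trpm6 (0.28) and Gm12854 (0.28), against a spread of 0.99. For Rgs1 they were the transporter gene Slc43a3 (0.094) and the cell cycle genes Gtse1 (0.11) and Cks1b (0.11), against 0.50. Cks1b went from 62.3 to 39.0 CPM in Tfh and from 87.4 to 80.3 CPM in non-Tfh cells with Bach2, beside Rgs1 at 27.4 to 18.5 and 42.9 to 40.5 CPM. This likeness follows from how the genes were picked, over these same 8 libraries, and is not separate evidence of a link. For Rgs19, with a spread of 0.16, they were Yars (0.033), a tRNA synthetase gene, Imp4 (0.044) and Dus1l (0.045).

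The other parts of the pathway were counted from lists of named genes. Of 10 tested alpha subunit genes, 2 were higher and 1 lower in the Tfh than in the non-Tfh group with empty vector. Over all tested genes 21.9% passed there (10.6% higher, 11.3% lower). Gna15, of the Gq class, stood at 22.3 ± 2.85 CPM in Tfh and 110.6 ± 3.83 CPM in non-Tfh cells with empty vector (SD, n = 2), a log2 fold change of -2.31 (edgeR adjusted p = 8.10e-08). With Bach2, Gna15 fell in non-Tfh cells to 66.2 ± 2.72 CPM (-0.74, edgeR adjusted p = 0.0153). Gna14, also of the Gq class, was higher in Tfh cells with empty vector (1.86, edgeR adjusted p = 0.0159). It stood at 11.4 ± 7.23 against 3.19 ± 1.36 CPM (SD, n = 2), so its 2 Tfh libraries lay far apart. Gna12 was higher there too, at 60.1 ± 12.6 against 43.0 ± 0.0656 CPM (0.49, edgeR adjusted p = 0.0310). With Bach2, 4 alpha subunit genes were higher and 1 lower in Tfh cells, where 24.4% of all tested genes passed (11.6% higher, 12.7% lower). Gna13 was among the higher ones (0.46, edgeR adjusted p = 0.00410). Of 9 beta and gamma subunit genes, 1 was higher in Tfh cells with either vector, Gng5 (0.35 and 0.44, edgeR adjusted p = 0.0462 and 0.0134), and none passed for Bach2.

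Of 18 other regulators, 1 was lower in Tfh cells with empty vector, where 21.9% of all tested genes passed. It was Arhgef1, a partner of Gna12 and Gna13 that carries an RGS-like domain, at 784.6 against 958.4 CPM (-0.29, edgeR adjusted p = 0.0331). Arhgef1 rose with Bach2 averaged over the cell types (0.29, edgeR adjusted p = 0.0185). It was the only 1 of the 18 to pass there, where 5.27% of all tested genes passed. With Bach2, 3 were higher and 1 lower in Tfh cells, where 24.4% of all tested genes passed. Gpsm3, Gprasp1 and Arhgef11 were higher, and Arrb2, an arrestin gene, was lower.

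Among 20 effectors, 2 were higher and 3 lower in Tfh cells with empty vector, where 21.9% of all tested genes passed (10.6% higher, 11.3% lower). Pik3r5, the adaptor of the PI3 kinase that beta and gamma subunits activate, stood at 12.9 ± 2.74 CPM in Tfh and 84.5 ± 13.4 CPM in non-Tfh cells (SD, n = 2), a log2 fold change of -2.73 (edgeR adjusted p = 3.05e-05). Rap1gap2, which turns off Rap, was lower too (-2.46, edgeR adjusted p = 0.000143), and the phosphodiesterase gene Pde3b was higher (0.83, edgeR adjusted p = 0.00116). With Bach2 averaged over the cell types, 4 effectors rose and 0 fell, where 2.37% of all tested genes passed as higher and 2.9% as lower. The 4 were the cyclic AMP phosphodiesterase genes Pde4b (0.39, edgeR adjusted p = 0.00400) and Pde7a (0.27, edgeR adjusted p = 0.0329), the protein kinase A subunit gene Prkar2a (0.32, edgeR adjusted p = 0.0424), and Pik3r5 (0.66, edgeR adjusted p = 0.0483). With Bach2, Pik3r5 stood at 26.6 ± 7.76 CPM in Tfh and 100.9 ± 18.5 CPM in non-Tfh cells (SD, n = 2), where its non-Tfh groups overlapped. How these 4 calls hold without single libraries was not tested.

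G protein-coupled receptors were counted last, and whether the members act on their signals was not tested. Of 47 tested, 7 were higher and 24 lower in the Tfh than in the non-Tfh group with empty vector, and 8 and 27 with Bach2, where 21.9% and 24.4% of all tested genes passed in either direction, with medians of -0.90 and -0.90 on the log2 scale. The list holds Cxcr5, which was used for sorting. Among those with the smallest adjusted p with empty vector were the histamine receptor gene Hrh4 (5.03 against 71.2 CPM), Gpr15 (8.02 against 82.4 CPM) and the prostaglandin receptor gene Ptger4 (67.8 against 164.3 CPM), each lower in Tfh cells. With Bach2 averaged over the cell types, 2 receptors rose and 7 fell, where 2.37% of all tested genes passed as higher and 2.9% as lower. Ccr4, a chemokine receptor gene, fell by 1.08 on the log2 scale (edgeR adjusted p = 0.00823), while F2rl1 rose (0.69, edgeR adjusted p = 0.00755).

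**Figure D4:**
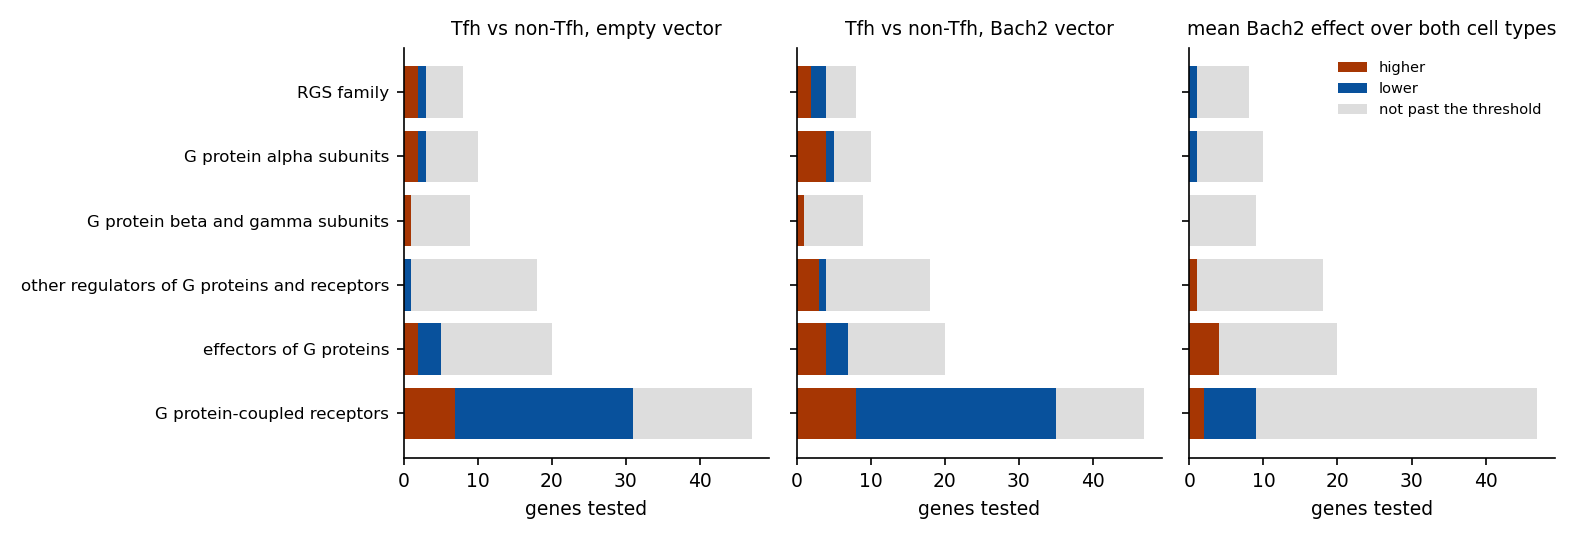
Number of tested genes (x axis) in each list of the G protein pathway (y axis) that were higher, lower or not past the threshold of an adjusted p below 0.05 in 3 comparisons. Receptors hold the most genes lower in Tfh cells, 24 of 47 with empty vector and 27 of 47 with Bach2.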

How the data were processed

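The authors deposited 1 table of raw counts per library, whole numbers for 39179 Ensembl genes. Per the submitters' processing notes, TopHat2, Bowtie2 and featureCounts were used with GRCm38/mm10. The versions, annotation release and treatment of multiply mapped reads are not given here by any source used. Per the labels' protocols, libraries were made with Smart-Seq v4 and Nextera XT. These kits do not mark strand. Symbols and positions came from GENCODE M21 (GRCm38), which matched 37607 IDs.

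Libraries were grouped by their titles. Genes were kept with filterByExpr (minimum count 10, minimum total 15), which left 11475. Counts of all 8 libraries were fitted with TMM scaling and 1 coefficient per group, with 4 residual degrees of freedom, in edgeR 4.0.16 (R 4.3.3, robust quasi-likelihood test, Benjamini-Hochberg adjustment over all tested genes, threshold 0.05). SE is the log2 fold change divided by the root of the F statistic. The common dispersion gave a coefficient of variation of 9.89%. Between replicates the chi-square statistic over its degrees of freedom was 5.77 to 8.97, so none was a copy. On simulated data of the Tfh vector comparison (11244 genes), 97% of 200 genes changed 2-fold were recovered with 8 false calls. The simulation gave all genes the same spread and placed the changes only in genes above a minimum mean level. It checks the code, and does not give the share of real 2-fold changes that would be called.

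All 7 members were named in each of 6 comparisons. From each pathway list at most 4 genes per comparison were named, those with the smallest adjusted p past the threshold (1 is not reported here), and for each called member the 3 genes of nearest pattern (prior count 2). Members and lists were chosen with earlier results of these data known. DESeq2 1.42.0, other scaling and filters, a replicate block, fewer libraries and leaving out each library were tried as alternatives.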

Additional observations from a re-analysis of the deposited data

How the results depend on the processing

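The 7 genes in 6 comparisons gave 462 values under the alternatives, of which 418 kept their direction and side of the threshold, 20 newly passed, 8 no longer passed and 16 changed sign, and scaling by RLE factors moved none. The calls on Rgs10 and Rgs16 between the cell types and on Rgs1 with Bach2 held in all 10 alternatives each. Without a filter on low counts, edgeR called 736 genes (Bach2, Tfh), 332 (Bach2, non-Tfh), 37 (interaction) and 1255 (averaged Bach2 effect), and 3, 1, 0 and 3 of the members, which added Rgs1, Rgs2 and Rgs16 in Tfh, Rgs16 in non-Tfh and Rgs2 and Rgs3 in the average. Rgs2 was added between the cell types with either vector, which gave 4 and 5 members. DESeq2 called 326, 161 and 4 genes for the first 3 of these, and 1 member, Rgs16, in non-Tfh cells, and it added Rgs2 between the cell types with Bach2 (0.80). Fitted on the 4 Bach2 libraries alone, Rgs19 between the cell types was -0.33 and no longer passed (edgeR adjusted p = 0.0537). Rgs10 between the cell types with empty vector was 1.78 with and without the filter. Its edgeR adjusted p went from 1.39e-05 to 6.22e-68 without it. For Rgs1 (Bach2, Tfh) the edgeR adjusted p went from 0.0887 to 0.0233, though its SE went up from 0.156 to 0.165. Passes without the filter thus come from another fit, and their adjusted p is not comparable with that of the main fit. What caused these shifts was not tested.

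With a replicate block, edgeR called 473 (Bach2, Tfh), 207 (Bach2, non-Tfh), 3 (interaction) and 975 genes (averaged), and 2, 1, 0 and 2 members: Rgs2 (0.61, adjusted p = 0.0330) and Rgs16 (-0.73, 0.0248) in Tfh, Rgs16 (-1.11, 0.0102) in non-Tfh and Rgs2 (0.51, 0.00883) beside Rgs16 in the average. Rgs2 also passed between the cell types there (0.58, 0.0153 with empty vector and 0.77, 0.00107 with Bach2). The labels do not say that replicate numbers pair libraries. Over genes, deviations of same-numbered libraries correlated at 0.21 and 0.24 between the cell types of the same vector (empty, Bach2), above 0.1 in 4 of 6 pairs of groups and as low as -0.0041 in the others. Whether the numbers mark shared material is thus unknown, and the calls on Rgs2 and on Rgs16 within a cell type differ between the fits with and without the block.

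Leaving out each library in turn gave 21 to 244 called genes for Bach2 in Tfh, 17 to 67 in non-Tfh, 0 to 1 for the interaction, 190 to 764 for the average, 1341 to 1940 for cell type with empty vector and 1922 to 2451 with Bach2. It gave 0 to 1 member for Bach2 in Tfh (Rgs16), 0 to 2 for the average (Rgs14 or Rgs3 added), 2 to 3 for cell type with empty vector and 3 to 5 with Bach2 (Rgs2 added, whose values ran from 0.36 to 1.13). Called values that lost their call ranged from -0.77 to -0.53 (Rgs1, cell type, empty vector), -0.39 to -0.26 (Rgs19, cell type, Bach2) and -1.13 to -0.75 (Rgs16, average). Values that changed sign, none of them called, ranged from -0.18 to 0.0077 (Rgs1, Bach2, non-Tfh), -0.38 to 0.12 (Rgs10, Bach2, Tfh), -0.038 to 0.21 (Rgs10, average) and -0.039 to 0.32 (Rgs14, Bach2, Tfh). Between the cell types they ranged from -0.051 to 0.14 (Rgs14) and -0.12 to 0.042 (Rgs3) with empty vector, and from -0.25 to 0.11 (Rgs14, 0.0088 without replicate 1 of the non-Tfh cells) and -0.20 to 0.088 (Rgs3) with Bach2. For the interaction they ranged from -0.23 to 0.54 (Rgs2, with -0.043 and -0.045 between), -0.16 to 0.13 (Rgs3, with 0.067 between), -0.30 to 0.063 (Rgs14) and -0.021 to 0.74 (Rgs16). A group left with 1 library was assumed to vary like the others.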
